A study of Rattus norvegicus with 62 samples.

Results

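Glucose transporters and the first steps of glycolysis were followed in rat heart through 10 genes: the transporters Slc2a1, Slc2a3 and Slc2a4, the hexokinases Hk1 and Hk2, Pfkm and Pfkfb2 of the phosphofructokinase step, Gys1, Pdha1 and Ldha. All probe sets whose annotation gave exactly 1 gene, that gene being 1 of the 10, were taken, which gave 22 of the 31099 probe sets on the array. Of these, 16 passed the filter on low signals and were tested, and 3 lay below it (1 each of Slc2a3, Hk1 and Pfkfb2). The remaining 3 were control probe sets along the Hk1 transcript. Each of the 10 genes kept at least 1 tested probe set.

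The heart takes up glucose through carriers in the surface membrane. GLUT1, encoded by Slc2a1, carries basal uptake, whereas GLUT4, encoded by Slc2a4, is held inside the cell and moves to the surface on insulin or contraction. Hexokinase traps glucose as glucose 6-phosphate, which goes to glycogen or through phosphofructokinase into glycolysis, and pyruvate at its end is either oxidised in mitochondria or reduced to lactate. Rosiglitazone is an insulin-sensitising drug that activates the nuclear receptor PPARγ.

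Expression was measured on 62 Affymetrix arrays of cardiac muscle from male Wistar rats, 1 array per sample. The animals received rosiglitazone by mouth once a day for 14 days at 0 (vehicle), 10 or 80 mg/kg/day, and tissue was taken 6, 24, 168 or 336 h after the last dose. With vehicle, 10 mg/kg and 80 mg/kg given in this order, the groups held 4, 5 and 5 arrays at 6 h, 6, 5 and 5 at 24 h, 5, 5 and 6 at 168 h, and 5, 6 and 5 at 336 h. The labels do not say that each sample came from its own animal, and the p-values therefore cover only the variation among these arrays, which may be technical.

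Values are log2 of the signal after quantile normalization, and a difference of 1 on this scale is a doubling relative to the rest of the array. Moderated tests in limma ran across 18625 probe sets, with calls made at adjusted p-values below 0.05. The arrays fell into 3 clusters on their first 2 principal components, of 21, 20 and 21 arrays, which held 7, 7 and 7, then 7, 7 and 6, then 6, 7 and 8 arrays of vehicle, 10 mg/kg and 80 mg/kg. The third held 16 of its arrays from 336 h, whereas the other clusters held none from that time. The signal of the hexokinase control at the 3′ end minus that at the 5′ end, a sign of RNA or labelling quality, lay between 1.35 and 2.0 in the first cluster, 2.14 and 5.66 in the second, and 1.43 and 2.58 in the last. The atrial gene Myl7 was at or above 9 on 10 arrays (1 vehicle, 4 of 10 mg/kg and 2 of 80 mg/kg at 6 h, and 3 of 80 mg/kg at 24 h). Of 8 cardiomyocyte markers 7 were on the array, with levels between 12.65 and 14.07, and limma called 0 of the 7 with 80 mg/kg against vehicle (1 had an unadjusted p under 0.05, at 336 h). At 336 h 1 of the 7 was higher with 80 mg/kg than with vehicle, and the median difference was −0.07. Their summed signal there had a lowest, median and highest value of 88600, 89900 and 91000 with 80 mg/kg. With vehicle these were 91600, 92900 and 93200. The part of this in the member values was not tested. In whole tissue, fewer cells of a type and less RNA per cell cannot be told apart.

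Slc2a3, which encodes the high-affinity transporter GLUT3 best known from neurons, was the member that rose with 80 mg/kg. At 6 h its tested probe set 1372326_at had levels of 6.67, 6.39, 6.36, 6.44 and 6.49 on the 80 mg/kg arrays, against 5.88, 4.68, 5.21 and 5.29 on the vehicle arrays. Every 80 mg/kg array lay above every vehicle array, as held for 0.918% of all tested probe sets. The difference was 1.21 (SE 0.19, 95% interval 0.82 to 1.60), a 2.31-fold higher level, with an adjusted p of 0.000555 in limma. Fitted on the 6 h arrays alone, the same difference had an adjusted p of 0.847.

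At 24 h the groups were not separated. The levels were 6.20, 5.84, 6.10, 5.76 and 5.94 with 80 mg/kg, against a lowest of 5.54, a median of 5.86 and a highest of 6.07 over the 6 vehicle arrays. The groups overlapped nearly throughout, and the difference was 0.15 (95% interval −0.20 to 0.51, adjusted p = 0.782 in limma). At 168 h the lowest, median and highest of the 6 arrays with 80 mg/kg were 5.78, 6.17 and 6.55, against 5.29, 5.67, 5.89, 5.24 and 5.92 with vehicle. The groups overlapped, although 6 of 6 treated arrays lay above the vehicle mean. The difference of 0.55 (95% interval 0.20 to 0.90) had an unadjusted p of 0.00295 and an adjusted p of 0.486 in limma, and was not called.

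At 336 h, the longest interval after dosing had stopped, the groups were apart again. The 80 mg/kg arrays stood at 6.73, 6.81, 6.36, 6.55 and 6.91, against 5.31, 5.58, 5.89, 6.35 and 5.83 with vehicle. The lowest treated array lay just above the highest vehicle array, and 1.28% of all probe sets were apart in this way. The difference was 0.88 (SE 0.18, 95% interval 0.51 to 1.25), 1.84-fold, with an adjusted p of 0.00769 in limma. It was 0.90 on the deposited scale, where the adjusted p was 0.62, and without vehicle 336 h replicate 2 the adjusted p was 0.0823.

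**Figure D1:**
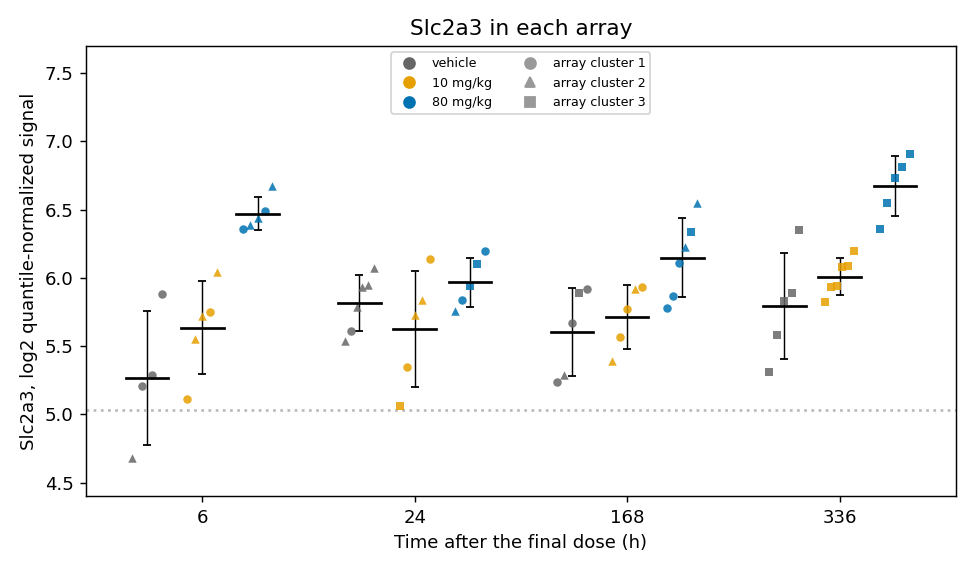
Log2 normalised signal of Slc2a3 probe set 1372326_at on each of the 62 arrays by sampling time and dose, with points coloured by dose and shaped by array cluster, bars for the group mean ± SD and a dotted line at the filter level of 5.03. At 6 and 336 h all 5 arrays with 80 mg/kg lie above all vehicle arrays, while at 24 and 168 h the groups overlap.

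Averaged over the 4 times, Slc2a3 stood at 6.31 with 80 mg/kg and at 5.62 with vehicle, a difference of 0.70 (SE 0.09, 95% interval 0.51 to 0.88), 1.62-fold, with an adjusted p of 5.88e-07 in limma. Leaving out any 1 array gave differences of 0.65 to 0.75 with adjusted p-values of at most 2.77e-06. A moderated F test of whether the 80 mg/kg effect differed between the 4 times gave F = 6.02, with an unadjusted p of 0.00133 and an adjusted p of 0.343 in limma, where 0.0215% of all probe sets were called. The low value at 24 h was thus not called as a difference between times.

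The 10 mg/kg dose gave no called difference in Slc2a3. At 6 h the 10 mg/kg arrays had levels of 5.11, 5.75, 6.04, 5.72 and 5.55, and they overlapped the vehicle arrays given above. The difference from vehicle was 0.37 (adjusted p = 0.793 in limma) at 6 h, −0.19 at 24 h, 0.11 at 168 h and 0.22 at 336 h. Its mean over the 4 times was 0.13, with a 95% interval of −0.05 to 0.31.

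The direct comparison of the doses was called over the 4 times together. Slc2a3 averaged 6.31 with 80 mg/kg and 5.75 with 10 mg/kg, a difference of 0.57 (SE 0.09, 95% interval 0.39 to 0.75), 1.48-fold, with an adjusted p of 0.000103 in limma. Without the 10 arrays high in Myl7 the difference was 0.53 and the adjusted p 0.0948. At single times the differences were 0.83 at 6 h, 0.34 at 24 h, 0.43 at 168 h and 0.66 at 336 h. The arrays of the doses were apart at 6 and at 336 h, as for 0.338% and 0.472% of all probe sets in that direction, but with adjusted p-values of 0.292 and 0.199 in limma neither time was called.

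Ordered by mean level, the Slc2a3 groups ran from 80 mg/kg at 336 h (6.67 ± 0.22, SD, n = 5) through 80 mg/kg at 6 h (6.47 ± 0.12, n = 5) and at 168 h (6.15 ± 0.29, n = 6) to 10 mg/kg at 336 h (6.01 ± 0.14, n = 6) and 80 mg/kg at 24 h (5.97 ± 0.18, n = 5). Below these stood vehicle at 24 h (5.82 ± 0.21, n = 6) and at 336 h (5.79 ± 0.39, n = 5), then 10 mg/kg at 168 h (5.72 ± 0.23), 6 h (5.63 ± 0.34) and 24 h (5.63 ± 0.42), with n = 5 each. Vehicle at 168 h (5.60 ± 0.32, n = 5) and at 6 h (5.26 ± 0.49, n = 4) were lowest. Between neighbours in this order, the gap exceeded the larger SD of the pair only for 80 mg/kg at 6 h and at 168 h. The low vehicle mean at 6 h enters the 6 h difference: the vehicle arrays differed by 0.55 between 24 and 6 h, with an unadjusted p of 0.00475 and an adjusted p of 0.266 in limma.

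Within array clusters the Slc2a3 difference between 80 mg/kg and vehicle at 6 h was 0.97 in the first cluster (2 against 3 arrays) and 1.82 in the second (3 against 1). At 336 h all 10 arrays lay in the third cluster, so the difference of 0.88 is itself a within-cluster value. At 168 h the differences in the 3 clusters were 0.31 (3 against 3 arrays), 1.10 (2 against 1) and 0.45 (1 against 1). At 24 h they were 0.41 (2 against 1) and −0.09 (1 against 5). The hexokinase 3′ minus 5′ signal at 6 h was 2.91 ± 1.16 (SD, n = 5) with 80 mg/kg and 1.89 ± 0.54 (n = 4) with vehicle, and with cluster as a block the 6 h difference was 1.19 (adjusted p = 0.000935 in limma). All 4 atrial markers were higher with 80 mg/kg over the 4 times, with a median of 1.02 and 0 called by limma (4 at an unadjusted p under 0.05). Their summed signal at 6 h had a lowest, median and highest value of 1130, 1910 and 15500 with 80 mg/kg and 945, 1860 and 18700 with vehicle, and at 336 h of 1180, 3200 and 4480 with 80 mg/kg and 610, 1060 and 1770 with vehicle. Without the arrays high in Myl7, Slc2a3 differed by 1.27 at 6 h (adjusted p = 0.0185 in limma), 0.88 at 336 h (adjusted p = 0.0147) and 0.69 over the 4 times (adjusted p = 0.000127).

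A second Slc2a3 probe set, 1387707_at, averaged 3.07, below the filter, and was not tested. Its levels at 6 h were 2.48, 2.69, 2.21, 3.04 and 3.40 with 80 mg/kg, against 2.22, 2.40, 2.88 and 2.33 with vehicle. At 336 h they were 5.23, 3.46, 3.16, 3.09 and 5.06 with 80 mg/kg, against 2.75, 2.54, 3.35, 2.26 and 3.24 with vehicle. The groups overlapped at both times. The differences from vehicle were 0.31, 0.76, −0.04 and 1.17 at the 4 times in order, with no test.

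GLUT3 is also carried by cells other than cardiomyocytes, so markers of those cells are given beside it. Of 6 endothelial markers 5 passed the filter, and Kdr, the receptor for VEGF, was called higher at 336 h (0.48, SE 0.09, adjusted p = 0.00401 in limma) and over the 4 times together (0.22, adjusted p = 0.00651), but not at 6 h (0.15, adjusted p = 0.824). The other endothelial markers were not called: at 336 h Tek stood at 0.28, Pecam1 at 0.12, Egfl7 at −0.03 and Tie1 at −0.25, and over the 4 times at 0.05, −0.04, 0.04 and −0.23. The list's median was 0.12 at 336 h and 0.04 over the 4 times. The lowest, median and highest summed endothelial signals at 336 h were 2990, 3440 and 3690 with 80 mg/kg and 2730, 2930 and 3030 with vehicle. At 6 h these sums were 2810, 3020 and 3170 with 80 mg/kg and 2550, 2920 and 3160 with vehicle. Their part in the Slc2a3 difference was not tested.

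Leukocyte, platelet and red cell markers gave 0 calls in limma at 6 and 336 h, with 1 red cell marker at an unadjusted p under 0.05 at 6 h. Leukocyte markers (5 of 6 kept) had sums at 336 h of 1390, 1520 and 1750 with 80 mg/kg and 1140, 1300 and 1630 with vehicle, and at 6 h of 1010, 1310 and 1400 with 80 mg/kg and 1090, 1230 and 1310 with vehicle. All 5 kept leukocyte markers were higher at 336 h, with a median difference of 0.25. Platelet markers (2 of 4 kept) had sums at 6 h of 225, 246 and 257 with 80 mg/kg and 210, 262 and 289 with vehicle, and at 336 h of 220, 283 and 333 with 80 mg/kg and 213, 268 and 301 with vehicle. Red cell markers (3 of 5 kept) were 3 of 3 higher at 6 h with a median of 0.29, and their sums there were 10900, 11500 and 13800 with 80 mg/kg and 9200, 10500 and 12900 with vehicle. Among the nerve markers Uchl1 and Nefl averaged 2.10 and 2.70, below the filter, and Gap43 differed by −0.23 at 6 h and −0.03 at 336 h. The fat cell markers Adipoq and Plin1 averaged 3.32 and 4.61, below the filter. Cfd, the fat cell marker that passed it, differed by −0.31 at 6 h and 0.15 at 336 h and was not called. With 10 mg/kg at 24 h the summed fat cell signal had a median of 155 and a highest value of 538. The brown fat cell marker Ucp1 there had a median of 8.85 and a highest value of 1280. With vehicle at 24 h these highest values were 151 and 16.4. All arrays of that 10 mg/kg group entered the 10 mg/kg comparisons. The parts of these cell types in the Slc2a3 difference were not tested.

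The share of members called has to be read against all probe sets. With 80 mg/kg against vehicle, Slc2a3 was the 1 called of 16 member probe sets at 6 h, where 0.0537% of all tested probe sets were called and 6.65% had an unadjusted p under 0.05. It was again the 1 called at 336 h, where the shares of all were 0.29% and 6.97%. No member was called at 24 h (0 of 16, 1 at an unadjusted p under 0.05, with 0.14% and 11.1% of all) or at 168 h (0 of 16, 1 at an unadjusted p under 0.05, with 0.0537% and 5.44% of all). Over the 4 times together Slc2a3 was 1 called of 16, with 4 at an unadjusted p under 0.05, where 0.478% of all probe sets were called and 9.54% had an unadjusted p under 0.05. The median difference of the 16 was 0.08, −0.01, 0.06 and 0.00 at 6, 24, 168 and 336 h, beside 0.01, −0.02, −0.01 and −0.01 over all probe sets.

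With 10 mg/kg against vehicle, limma called 0 of 16 member probe sets at each time and in the mean. At an unadjusted p under 0.05 there were 2, 0, 0 and 1 at 6, 24, 168 and 336 h, and 3 in the mean. Of all probe sets 0% were called at each time and 0.0107% in the mean, and 6.42%, 5.84%, 3.86%, 3.63% and, in the mean, 4.77% had an unadjusted p under 0.05. Between 80 and 10 mg/kg the 1 called of 16 was Slc2a3 in the mean of the 4 times, where 0.188% of all were called and 6% had an unadjusted p under 0.05. At single times limma called 0 of 16, where 0%, 0.0107%, 0.0376% and 0.102% of all were called. At an unadjusted p under 0.05 there were 1, 1, 1 and 2 of the 16, and 3.68%, 3.74%, 4.73% and 3.59% of all.

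**Figure D2:**
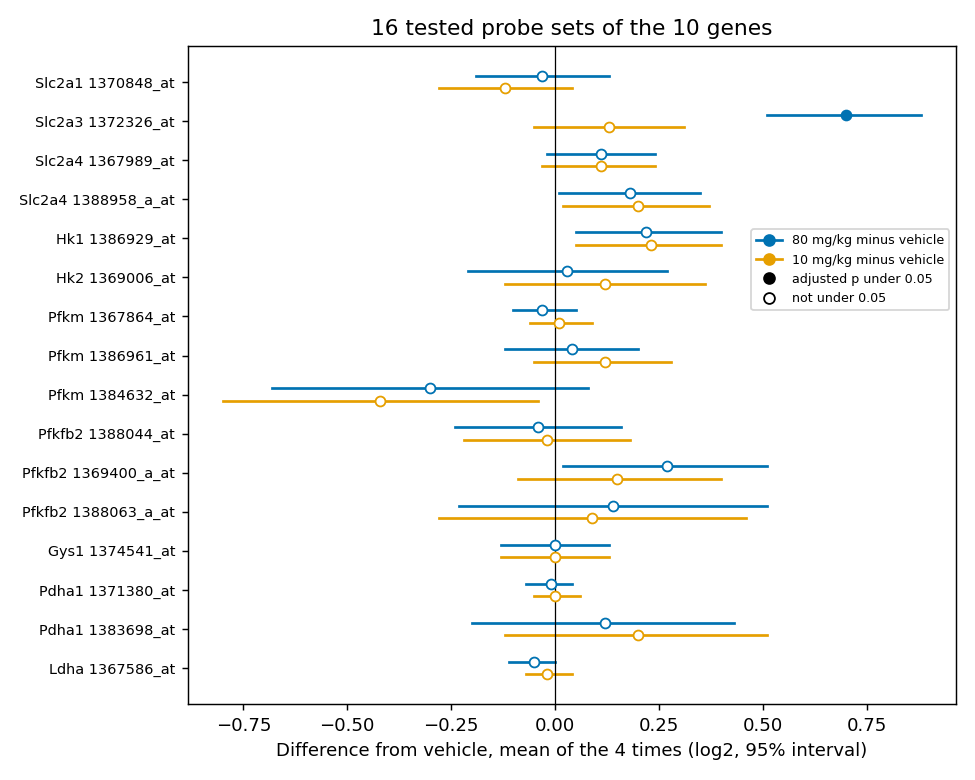
Difference in log2 signal from vehicle, averaged over the 4 times, for each of the 16 tested member probe sets, with points for 80 mg/kg and 10 mg/kg and bars for 95% intervals from limma. Slc2a3 with 80 mg/kg lies at 0.70, the highest of the points.

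The transcripts of GLUT1 and GLUT4, the main glucose carriers of the heart muscle cell, had no called difference with either dose. Slc2a1 averaged 7.67, 7.77, 7.65 and 7.83 on vehicle arrays at 6, 24, 168 and 336 h, and its difference with 80 mg/kg over the 4 times was −0.03 (95% interval −0.19 to 0.13, adjusted p = 0.954 in limma). At the lower dose it was −0.12 (95% interval −0.28 to 0.04). Slc2a4 had a pair of probe sets, of which 1367989_at differed by 0.11 (95% interval −0.02 to 0.24, adjusted p = 0.649 in limma) and 1388958_a_at by 0.18 (95% interval 0.01 to 0.35, adjusted p = 0.496 in limma) with 80 mg/kg. For 10 mg/kg these were 0.11 and 0.20. The upper ends of these intervals lay below the Slc2a3 difference.

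Hexokinase 1, the form spread over most tissues, had positive differences with both doses at 6 h and over the 4 times in its tested probe set. None of these was called. The untested dim probe set 1398725_at is given further below with the Hk1 controls. Hk1 probe set 1386929_at differed from vehicle by 0.22 (95% interval 0.05 to 0.40, adjusted p = 0.341 in limma) with 80 mg/kg over the 4 times, and by 0.23 (95% interval 0.05 to 0.40, adjusted p = 0.993 in limma) with 10 mg/kg. At 6 h the differences were 0.47 with 10 mg/kg and 0.35 with 80 mg/kg, with adjusted p-values of 0.681 and 0.782 in limma. Hexokinase 2, the insulin-responsive form of muscle, differed by 0.03 (95% interval −0.21 to 0.27) with 80 mg/kg and 0.12 (95% interval −0.12 to 0.36) with 10 mg/kg. At 24 h Hk2 averaged 7.27 ± 0.25 with 80 mg/kg and 7.32 ± 0.49 with 10 mg/kg (SD, n = 5 each), against 6.95 ± 0.73 with vehicle (n = 6), the lowest mean and the widest spread of its 12 groups.

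At the phosphofructokinase step, Pfkm encodes the muscle form of the enzyme and Pfkfb2 a heart enzyme that makes and breaks down its activator, fructose 2,6-bisphosphate. Pfkm probe sets 1367864_at and 1386961_at differed by −0.03 (95% interval −0.10 to 0.05) and 0.04 (95% interval −0.12 to 0.20) with 80 mg/kg, whereas 1384632_at differed by −0.30 (95% interval −0.68 to 0.08, adjusted p = 0.673 in limma). The last of these had a residual SD of 0.61, against 0.11 for 1367864_at, and its interval includes the values of the other two. At 10 mg/kg 1384632_at differed by −0.42 (95% interval −0.80 to −0.04) and was not called.

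Pfkfb2 was apart from vehicle at a single time in 1 of its 3 tested probe sets. At 336 h 1369400_a_at had levels of 6.17, 6.13, 6.01, 5.93 and 6.17 with 80 mg/kg, against 5.63, 5.92, 5.19, 5.23 and 5.82 with vehicle. The groups did not overlap, as held for 1.28% of all probe sets in this direction. The difference of 0.52 (95% interval 0.03 to 1.02) was not called (adjusted p = 0.658 in limma), and its mean over the 4 times was 0.27 (95% interval 0.02 to 0.51, adjusted p = 0.45). The probe sets 1388044_at and 1388063_a_at differed by −0.04 and 0.14 in that mean.

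Gys1, which encodes the glycogen synthase of muscle and heart, did not differ from vehicle by a measurable amount. The difference over the 4 times was 0.00 with 80 mg/kg and 0.00 with 10 mg/kg, each with a 95% interval of −0.13 to 0.13. Pdha1 encodes a subunit of pyruvate dehydrogenase, which admits pyruvate to mitochondrial oxidation. Its probe set 1371380_at differed by −0.01 (95% interval −0.07 to 0.04) and 1383698_at by 0.12 (95% interval −0.20 to 0.43) with 80 mg/kg. At 24 h 1383698_at differed by 0.53 (adjusted p = 0.519 in limma), where it averaged 10.82 ± 0.24 (SD, n = 5) with 80 mg/kg and 10.29 ± 1.0 (n = 6) with vehicle.

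Ldha, the lactate dehydrogenase subunit that favours lactate formation, was the most tightly measured member, with a residual SD of 0.07. At 24 h its levels were 12.60, 12.63, 12.75, 12.70 and 12.73 with 80 mg/kg, against 12.80, 12.87, 12.73, 13.01, 12.81 and 12.73 with vehicle. All 5 treated arrays lay below the vehicle mean, but the groups overlapped. The difference of −0.14 (95% interval −0.25 to −0.04) had an unadjusted p of 0.00849 and an adjusted p of 0.314 in limma, at a time when 11.1% of all probe sets had an unadjusted p under 0.05. Over the 4 times it was −0.05 (95% interval −0.11 to 0.00).

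**Figure D3:**
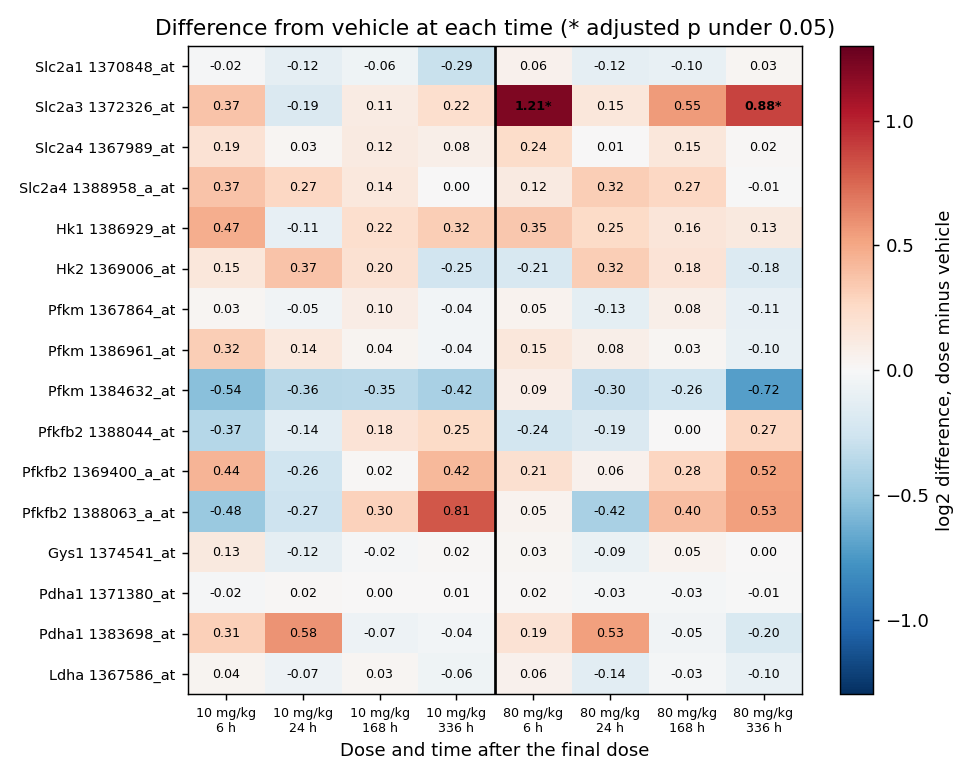
Difference in log2 signal from vehicle at each time for the 16 tested member probe sets, with 10 mg/kg and then 80 mg/kg in columns and colour for the size and direction; a star marks an adjusted p under 0.05 in limma. Stars stand only at Slc2a3 with 80 mg/kg at 6 and 336 h.

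Across all members other than Slc2a3, the 15 remaining probe sets had differences with 80 mg/kg between −0.24 and 0.35 at 6 h, −0.42 and 0.53 at 24 h, −0.26 and 0.40 at 168 h, and −0.72 and 0.53 at 336 h. The smallest adjusted p among them was 0.314 in limma, for Ldha at 24 h. Averaged over the 4 times they lay between −0.30 and 0.27. The 95% intervals of the 4-time means reached from 0.05 to 0.38 to either side, and those of single times from 0.10 to 0.81.

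Of the 88 other genes of glucose handling listed beside the members, 67 had a probe set above the filter. Against vehicle, 1 of the 67 was called at any time or in the mean, with either dose: Eno3, the muscle enolase of later glycolysis, which fell by 0.60 (SE 0.13, adjusted p = 0.0231 in limma) with 80 mg/kg at 24 h. All 11 kept genes of later glycolysis had negative differences in that comparison, with a median of −0.17 beside −0.02 over all probe sets. In this comparison 4 of 4 atrial markers were also higher, with a median of 2.05 and 0 called by limma (3 at an unadjusted p under 0.05), Myl7 by 3.29 (adjusted p = 0.182). Their summed signal had a lowest, median and highest value of 1370, 12900 and 24600 with 80 mg/kg and 1390, 1710 and 2540 with vehicle. The hexokinase 3′ minus 5′ signal was 1.97 ± 0.47 (SD, n = 5) with 80 mg/kg and 2.99 ± 1.39 (n = 6) with vehicle. With vehicle alone, 9 of the 11 later glycolysis genes were higher at 24 h than at 6 h, with a median of 0.20. Eno3 was higher by 0.45 in that step (adjusted p = 0.192 in limma). At 168 h with vehicle, 9 of the 11 were lower than at 24 h, with a median of −0.17. None was called in either step. The parts of these in the later glycolysis values were not tested. For 10 mg/kg at 24 h 9 of the 11 had negative differences, with a median of −0.15, and Eno3 stood at −0.28 (adjusted p = 0.848 in limma). The Eno3 call was lost in 5 alternative fits and held in 5. Among the losses were the fit without the 2 vehicle arrays high in the actin 3′ minus 5′ signal (−0.57, adjusted p = 0.214 in limma) and the deposited scale (−0.94, adjusted p = 0.289). The call was also lost in 7 of 11 fits that left out 1 array of the groups compared. These left out 80 mg/kg replicates 3, 4 and 6 and vehicle replicates 1, 3, 4 and 5, with adjusted p-values up to 0.0959 in limma.

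The other lists gave 0 called against vehicle in limma. They were other glucose transporters (4 of 10 kept), other hexokinase and phosphofructokinase genes (5 of 10) and glycogen enzymes (14 of 17). Pyruvate and lactate handling (14 of 16), GLUT4 vesicle traffic (8 of 10) and regulators (11 of 12) were the rest. Over all 67 genes, later glycolysis included, 1 to 7 had an unadjusted p under 0.05 in each comparison with vehicle. Of all probe sets 3.63% to 11.1% did. Slc2a3 was thus the transporter gene whose rise was called among the 7 that could be tested.

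Between the last sampling times, more member probe sets were called in the vehicle and 10 mg/kg groups than in any comparison of doses, and none in the 80 mg/kg groups. Between 336 and 168 h after the last vehicle dose, 4 of 16 member probe sets were called, all higher at 336 h, where 4.55% of all probe sets were called and 1.79% were called higher. They were both Slc2a4 probe sets, Pfkm 1367864_at and Gys1. The median difference of the 16 was 0.16, beside 0.00 over all probe sets, and 12 were higher. An unadjusted p under 0.05 was reached by 6 of 16 and by 21.2% of all.

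The GLUT4 transcript was higher at the later time by both of its probe sets. Slc2a4 probe set 1388958_a_at had levels of 9.42, 9.52, 9.76, 9.57 and 9.48 at 336 h, against 9.08, 8.87, 9.04, 8.83 and 9.06 at 168 h. These groups did not overlap, as held for 2.92% of all probe sets in the higher direction, and the difference was 0.58 (SE 0.17, 95% interval 0.23 to 0.92), 1.49-fold, with an adjusted p of 0.0419 in limma. Probe set 1367989_at stood at 11.29, 11.41, 11.34, 11.13 and 11.37 at 336 h, against 11.19, 10.65, 10.97, 10.66 and 10.62 at 168 h. The highest 168 h array reached into the 336 h range, and the difference was 0.49 (SE 0.13, 95% interval 0.22 to 0.75), 1.40-fold, with an adjusted p of 0.0255.

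Pfkm 1367864_at had levels of 12.34, 12.19, 12.41, 12.32 and 12.34 at 336 h, against 12.10, 11.80, 12.08, 12.09 and 12.03 at 168 h. The groups did not overlap, and the difference was 0.30 (SE 0.08, 95% interval 0.14 to 0.45), 1.23-fold, with an adjusted p of 0.0192 in limma. Pfkm 1386961_at differed by 0.18, also without overlap, and was not called (adjusted p = 0.579). Gys1 stood at 9.61, 9.72, 9.80, 9.79 and 9.62 at 336 h, against 9.35, 8.99, 9.63, 9.23 and 9.18 at 168 h. A single 168 h array reached the 336 h range, and the difference was 0.43 (SE 0.13, 95% interval 0.17 to 0.70), 1.35-fold, with an adjusted p of 0.0467.

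Hk1 had levels of 9.64, 9.92, 9.98, 10.35 and 9.98 at 336 h, against 9.63, 8.86, 9.55, 9.65 and 9.61 at 168 h. The groups overlapped by 1 array, and the difference of 0.52 was not called with vehicle (adjusted p = 0.0713 in limma). Pdha1 differed the other way, by −0.56 (adjusted p = 0.302) in 1383698_at and by −0.09 (adjusted p = 0.361) in 1371380_at, and Ldha differed by 0.13 (adjusted p = 0.137). A moderated F test over the 4 vehicle times called 5 of 16 member probe sets, where 8.05% of all were called. They were both Slc2a4 probe sets (F = 5.27, adjusted p = 0.0438, and F = 9.14, adjusted p = 0.00522), Hk1 (F = 5.67, adjusted p = 0.0343), Pfkm 1367864_at (F = 5.96, adjusted p = 0.0289) and Gys1 (F = 6.16, adjusted p = 0.0257). Between 24 and 6 h and between 168 and 24 h with vehicle, limma called 0 of 16, where 0.226% and 0% of all were called. At an unadjusted p under 0.05 there were 5 and 1 of the 16, and 11.4% of all in either comparison.

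The same step was set out in the treated groups after the vehicle values had been seen. In the 10 mg/kg groups, 3 of 16 were called higher at 336 h, where 5.11% of all probe sets were called and 2.29% called higher. An unadjusted p under 0.05 was reached by 5 of the 16 and by 20.8% of all. The 3 called were Slc2a4 1367989_at (0.44, adjusted p = 0.0286 in limma), Gys1 (0.48, adjusted p = 0.0197) and Hk1 (0.62, adjusted p = 0.023). Hk1 ran from 10.10 through a median of 10.31 to 10.46 at 336 h, against 9.61, 9.31, 10.15, 9.62 and 9.72 at 168 h, with 1 of the 168 h arrays inside the later range.

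With 80 mg/kg limma called 0 of 16 between 336 and 168 h, with 6 at an unadjusted p under 0.05, where 3.02% and 18.7% of all probe sets reached these thresholds. The differences were 0.36 and 0.29 for Slc2a4, 0.49 for Hk1, 0.39 for Gys1 and 0.11 for Pfkm 1367864_at, with adjusted p-values of 0.0917, 0.34, 0.0871, 0.0734 and 0.438. Whether the step differed between doses was not tested. Single markers of other cell types were also called between 336 and 168 h. With vehicle the fibroblast marker Pdgfra was called lower (−0.35, adjusted p = 0.0317 in limma). The list of 4 was mixed, with a median of −0.16. Lum stood at −0.22, Dcn at −0.09 and Col1a1 at 0.42, none of them called. In the 10 mg/kg groups the red cell marker Hbb was called lower (−0.44, adjusted p = 0.0093 in limma). The list of 3 had a median of −0.44, with Alas2 at −0.47 and Slc4a1 at 0.61, neither called. The smooth muscle marker Acta2 was called higher in these groups (0.87, adjusted p = 0.0388 in limma, list of 3, median 0.83). The part of these cell types in the member values was not tested. For both Slc2a4 probe sets, Hk1, Pfkm 1367864_at and Gys1, the 3 groups of 336 h held the 3 highest of the 12 group means. These probe sets were taken because the F test over the vehicle times had called them. The vehicle part of this order is therefore not independent of the choice. How many of all probe sets had the same order was not counted.

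**Figure D4:**
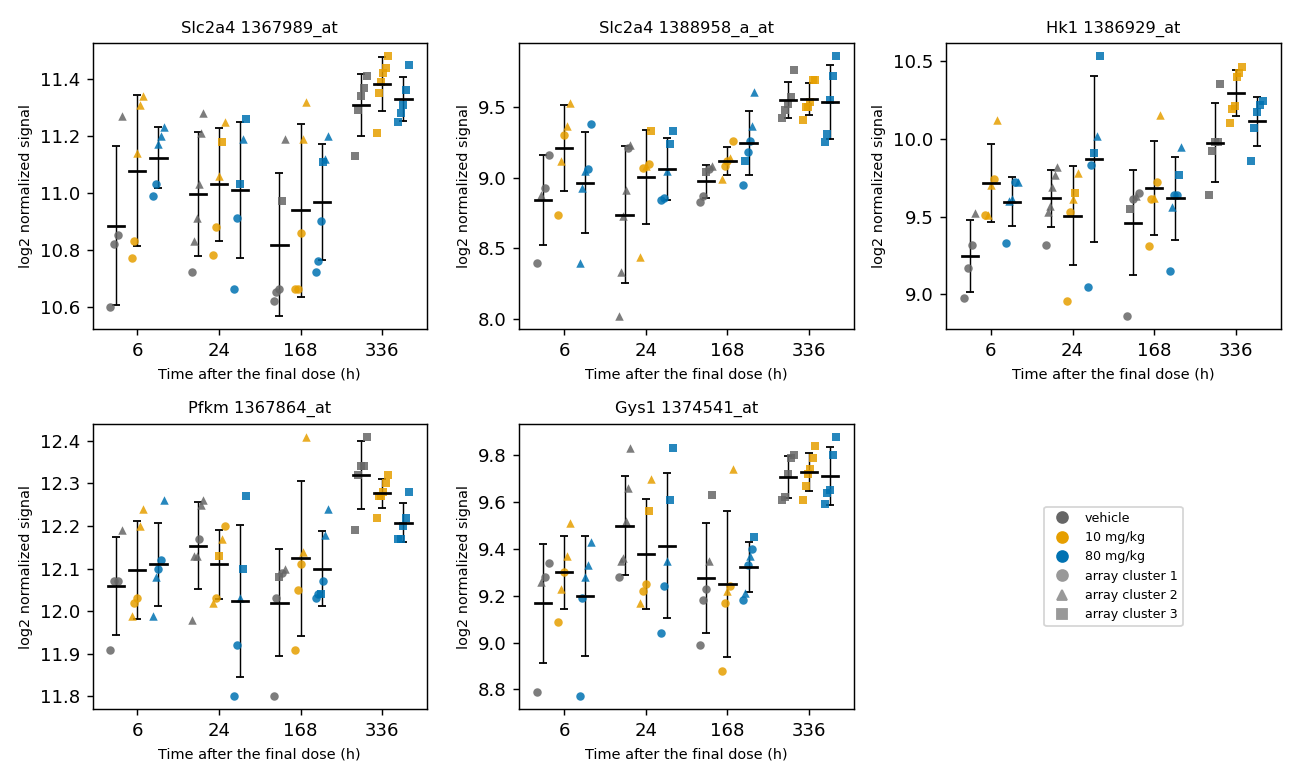
Log2 signal of both Slc2a4 probe sets, Hk1, Pfkm 1367864_at and Gys1 on each array by sampling time, with points coloured by dose and shaped by array cluster and bars for the group mean ± SD. The panels show the probe sets called by the F test over the vehicle times. In every panel the 336 h groups have the highest means, and all 336 h arrays belong to the third cluster.

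Sampling time and array cluster moved together: all 16 arrays of 336 h lay in the third cluster, while the vehicle arrays of 168 h were spread 3, 1 and 1 over the clusters. Inside the third cluster, the 5 vehicle arrays of 336 h could be set against 1 of 168 h, with differences of 0.33 and 0.51 for Slc2a4, 0.24 for Pfkm 1367864_at and 0.08 for Gys1. With cluster as a block the differences were 0.29 and 0.42 for Slc2a4, 0.21 for Pfkm and 0.13 for Gys1, and none was called (adjusted p = 0.477, 0.751, 0.629 and 0.916 in limma). In the 10 mg/kg groups no array of 168 h lay in the third cluster, and with the block 0 of the 3 members stayed called, at 0.26 for Slc2a4 1367989_at, 0.32 for Hk1 and 0.13 for Gys1 (adjusted p = 0.775, 0.931 and 0.969 in limma). Over all probe sets the block left 2 calls there and 0 with vehicle. With arrays scaled by their medians these 3 were not called either, at 0.43, 0.64 and 0.50 (adjusted p = 0.179, 0.0652 and 0.119 in limma). At 336 h, cluster and time cannot be told apart. Scaling also mattered, since 0 of the 4 were called with arrays scaled by their medians, at differences of 0.47 and 0.57 for Slc2a4, 0.28 for Pfkm and 0.43 for Gys1, and with no filter on low signals Pfkm alone was called. The 4 calls also rested on single arrays: 0 were left without vehicle 168 h replicate 2 or 336 h replicate 4, 1 without 168 h replicate 4 or 5 or 336 h replicate 3 or 6, 2 without 336 h replicate 2 or 5, 3 without 168 h replicate 1, and 4 without 168 h replicate 3.

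Promoter sequence from RefSeq (build GRCr8) is shown for Gys1, Pfkm and Hk1, which had a probe set called by the F test over the vehicle times. It runs from 250 bases before to 50 bases after the annotated start, 5′ to 3′ on the strand of the gene. Capitals mark matches to the GC box GGGCGG or its reverse complement CCGCCC. Gys1 lies on the plus strand at chr1:105051666-105051965, Pfkm on the plus strand at chr7:131113849-131114148 and Hk1 on the minus strand at chr20:30842023-30842322.
Gys1: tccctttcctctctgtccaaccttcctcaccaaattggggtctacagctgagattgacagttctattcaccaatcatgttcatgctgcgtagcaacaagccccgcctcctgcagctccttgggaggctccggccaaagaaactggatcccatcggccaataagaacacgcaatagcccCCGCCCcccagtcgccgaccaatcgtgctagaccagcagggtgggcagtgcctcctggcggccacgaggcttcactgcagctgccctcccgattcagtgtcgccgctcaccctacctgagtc
Pfkm: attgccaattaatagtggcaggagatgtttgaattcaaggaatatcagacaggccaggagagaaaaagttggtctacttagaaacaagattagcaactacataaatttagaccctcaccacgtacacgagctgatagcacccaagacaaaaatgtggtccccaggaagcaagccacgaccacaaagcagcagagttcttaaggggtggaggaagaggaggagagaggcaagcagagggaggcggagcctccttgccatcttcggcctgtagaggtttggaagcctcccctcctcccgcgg
Hk1: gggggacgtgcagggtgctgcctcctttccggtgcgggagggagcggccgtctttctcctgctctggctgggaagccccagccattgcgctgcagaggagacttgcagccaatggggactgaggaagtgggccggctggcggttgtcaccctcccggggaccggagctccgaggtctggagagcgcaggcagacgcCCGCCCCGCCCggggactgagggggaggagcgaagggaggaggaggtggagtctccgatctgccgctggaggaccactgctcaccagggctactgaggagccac

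Of the 10 members 8 had an entry in the promoter table; Slc2a3 and Slc2a4 were not among them. On both strands, GGGCGG was found in 5 of the 8, beside 33.1% of 33469 promoters of the same length, with 1 match in Gys1, none in Pfkm and 2 in Hk1. The direct repeat that PPAR receptors bind, AGGTCA followed after any 1 base by AGGTCA, was found in 0 of 8 and in 0.0538% of all. A single AGGTCA, which the repeat contains, was found in 1 of 8 (Pfkfb2) and in 16.2% of all, and CACGTG in 1 of 8 (Ldha) and in 6.42% of all. The GC box is thus shared by only some of the genes shown.

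The 3 hexokinase controls probe the Hk1 transcript at its 5′ end, middle and 3′ end, and serve as a further look at that gene and at RNA quality. The 3′ control averaged 7.76 ± 0.46 in vehicle at 6 h (SD, n = 4), 7.84 ± 0.54 at 24 h (n = 6), 8.03 ± 0.09 at 168 h and 8.36 ± 0.16 at 336 h (n = 5 each), so its highest vehicle mean was also at 336 h. The 5′ control averaged 5.87 ± 0.55, 4.85 ± 1.58, 6.18 ± 0.27 and 6.25 ± 0.20 in the same groups. Its spread was widest at 24 h, and the 3′ minus 5′ signal was 2.99 ± 1.39 at 24 h, 1.85 ± 0.36 at 168 h and 2.11 ± 0.17 at 336 h. The dim Hk1 probe set 1398725_at, at a mean of 4.78, differed by −0.89, 0.44, −0.35 and −1.46 with 80 mg/kg against vehicle at 6, 24, 168 and 336 h, with no test.

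**Figure D5:**
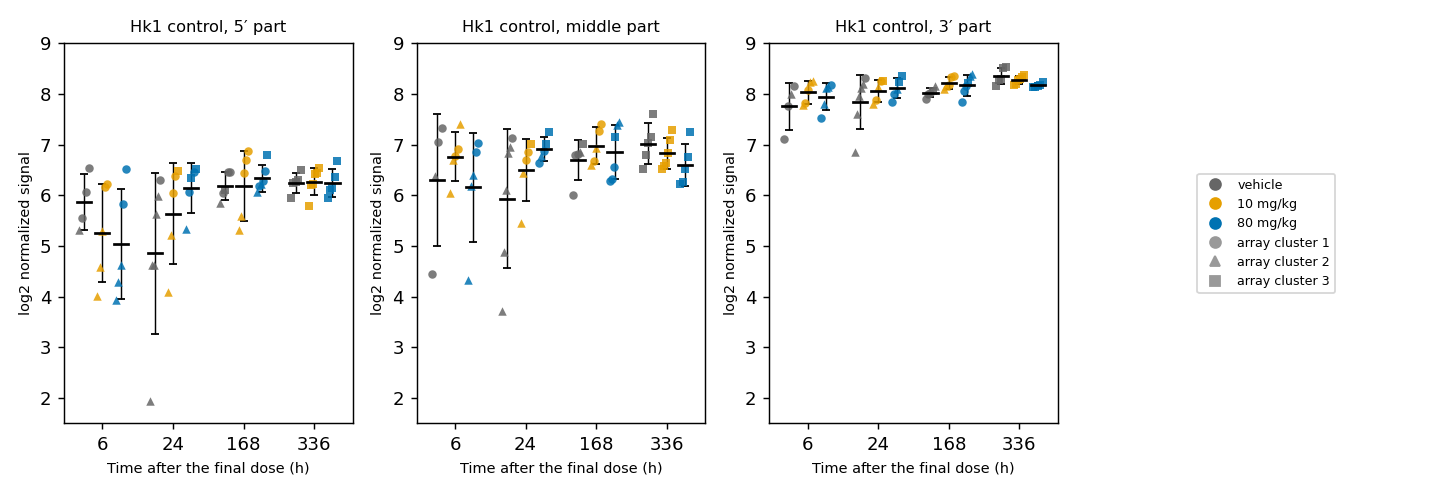
Log2 signal of the hexokinase control probe sets at the 5′ end, the middle and the 3′ end of Hk1 on each array by sampling time, with points coloured by dose and shaped by array cluster and bars for the group mean ± SD. The 5′ signal spreads most at 6 and 24 h, while the 3′ signal runs from 6.86 to 8.54.

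Genes whose 12 group means ran most like those of Slc2a3 were C13h1orf115 (Pearson r = 0.937 over 12 group means), Meox2 (r = 0.936), a homeobox factor of mesoderm and endothelium, and Agpat3 (r = 0.924), an acyltransferase of phospholipid synthesis. The 12 points share arrays and normalization with Slc2a3, so these values are a description. The genes were picked because their means followed Slc2a3, which was itself called with 80 mg/kg. Their differences with 80 mg/kg are thus no separate support, and the p-values do not account for that choice. Over the 4 times, Meox2 was higher with 80 mg/kg by 0.31 (SE 0.06, adjusted p = 0.00505 in limma), whereas C13h1orf115 differed by 0.23 (adjusted p = 0.0651) and Agpat3 by 0.74 (adjusted p = 0.351). The Meox2 call was lost on the deposited scale (0.27), with arrays scaled by their medians (0.28, adjusted p = 0.0776) and without the arrays high in Myl7 (0.25, adjusted p = 0.104).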

How the data were processed

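Per the labels' protocols, RNA from RNAlater-preserved cardiac muscle was isolated with a column kit including DNase, labelled with biotin in 1 cycle and hybridised, 1 array per sample. The deposited values are linear intensity signals, 1 per probe set and array. The submitters' processing notes name GCOS and MAS5; their versions are not given in the sources used here, and no scaling step is stated. The deposited signals were not on a common scale: array medians ran from 31.1 to 86.9 and 2% trimmed means from 82.9 to 246. Their number and these signals limit the precision.

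The signals were taken to log2 and quantile normalized over 31042 probe sets, leaving out 57 control probe sets; the 3 hexokinase controls were placed on that scale by interpolation. This replaced the planned deposited scale, which became an alternative. Probe sets at or above the 40th percentile of mean log2 signal (5.03) were kept, 18625 in all, 14260 of them with 1 gene (10557 genes). A model with 12 group means was fitted in limma 3.58.1 (R 4.3.3), with 50 residual and 2.36 prior degrees of freedom. P-values were two-sided and adjusted by Benjamini-Hochberg over all tested probe sets of each contrast. Levels were not compared between probe sets. Figures were drawn with matplotlib 3.10.9 in Python 3.11.15. The code was tested on simulated data. No pair of arrays was identical, and rank correlations within groups ran from 0.885 to 0.952.

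Named genes were the members, listed pathway genes that were called, listed marker genes whether called or not, and the 3 genes most like Slc2a3 over group means. Members, lists and tests were chosen with earlier results of these data known, and the 336 against 168 h comparisons at 10 and 80 mg/kg were added after values were seen. Array cluster, Myl7, actin and Gapdh signals, array weights, scale, filter, replicate block and left-out arrays served as alternatives.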

Additional observations from a re-analysis of the deposited data

Results flagged for a closer look

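The brightest probe set of each of the 10 members was tested in each of the 12 groups, of 4 to 6 arrays, for a single array far from the rest. Of these 120 tests 5 found one by Dixon's criterion, and chance gives about 1 in 20. Hk1 1386929_at stood at 8.86 on vehicle 168 h replicate 2, against 9.55 to 9.65 on the other 4 arrays of the group. Pfkm 1367864_at stood at 11.80 on the same array, against 12.03 to 12.10. Without that array 0 member probe sets were called between 336 and 168 h with vehicle. Hk2 stood at 7.76 on 80 mg/kg 336 h replicate 3, against 7.08 to 7.27. Gys1 stood at 8.79 on vehicle 6 h replicate 6, against 9.26 to 9.34. Pdha1 1371380_at stood at 12.87 on 80 mg/kg 6 h replicate 6, against 12.66 to 12.68.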

How the results depend on the processing

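The Slc2a3 difference between 80 mg/kg and vehicle over the 4 times was called under every alternative run, and so was that at 6 h except with only the 6 h arrays fitted (1.21, adjusted p = 0.847 in limma). Counts of called member probe sets changed as follows. On the deposited scale they were 0 for 80 mg/kg against vehicle at 336 h, 0 for vehicle 336 against 168 h and 0 for the vehicle times together. With arrays scaled by their medians the last pair were 0 and 1, with no filter 1 and 1, and with array cluster as a block 0 and 0. Array weights gave 1 for 80 against 10 mg/kg at 336 h, where 0 had been called. Without the arrays high in Myl7 the counts were 0 for 80 against 10 mg/kg in the mean and 1 for the vehicle times together. With only the arrays of the times compared, 80 mg/kg against vehicle at 6 h gave 0. Leaving out single arrays gave 0 to 1 for 80 mg/kg against vehicle at 336 h, 0 to 4 for vehicle 336 against 168 h and 1 to 6 for the vehicle times together, with 1 without 336 h replicate 4 or 5, 2 without 6 h replicate 6 or 336 h replicate 3 or 6, and 3 without 168 h replicate 2 or 336 h replicate 2. For 10 mg/kg 336 against 168 h the count was 0 without 168 h replicate 3, 1 without 168 h replicate 2 or 6 or 336 h replicate 6, 2 without 336 h replicate 3 or 5, and 3 to 4 otherwise. On the deposited scale that count was 11, and 6 with 80 mg/kg, where the median over all probe sets was 0.62 and 0.49. Pdhb and Mpc2 changed direction there, at 0.30 and 0.29 with 10 mg/kg, both below that median.

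Deviations of same-numbered arrays of different groups had a median correlation of 0.00705 (52 pairs, −0.257 to 0.338), beside −0.00563 for other pairs. These correlations gave no sign of pairing by number, but cannot show that there was none. With a replicate block Slc2a3 differed by 0.70 over the 4 times (adjusted p = 1.07e-06 in limma), and 4 member probe sets were called between 336 and 168 h with 10 mg/kg, against 3 without the block. Over all probe sets, 80 mg/kg against vehicle at 24 h gave 214 calls with arrays scaled by their medians (15 higher, 199 lower) and 1 on the deposited scale, against 26.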

Other observations

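Outside the members, called genes of glucose handling between 336 and 168 h are given as values, named after these had been seen. Of the 67 kept genes, limma called 3 higher with vehicle, 2 higher and 2 lower with 10 mg/kg, and 2 higher with 80 mg/kg. These shares were close to the 4.55%, 5.11% and 3.02% of all probe sets called. An unadjusted p under 0.05 was reached by 23, 21 and 20 of the 67, and by 21.2%, 20.8% and 18.7% of all. With vehicle, the glycogen synthase kinase gene Gsk3a was higher at 336 h by 0.99 (adjusted p = 0.0216 in limma), Klf15, a transcription factor known to act on Slc2a4 in muscle, by 0.70 (adjusted p = 0.0109), and the lactate dehydrogenase gene Ldhd by 0.47 (adjusted p = 0.0338). With 10 mg/kg, Pfkl, the liver form of phosphofructokinase, was higher by 0.78 (adjusted p = 0.0176) and Vamp2, a vesicle fusion protein of GLUT4 traffic, by 0.66 (adjusted p = 0.0306). In the same comparison Pdhb, the other chain of the pyruvate dehydrogenase component that holds Pdha1, was lower, at −0.25 (adjusted p = 0.0302 in limma), and so was Mpc2, a subunit of the mitochondrial pyruvate carrier, at −0.31 (adjusted p = 0.0376). On the deposited scale these 2 had positive values. With 80 mg/kg, Pfkl was higher by 0.78 (adjusted p = 0.026) and Gsk3b by 1.41 (adjusted p = 0.0379). With array cluster as a block the vehicle differences were 0.52 for Gsk3a, 0.41 for Klf15 and 0.21 for Ldhd, and none was called (adjusted p = 0.77, 0.681 and 0.847 in limma). In the same fit limma called none of the genes named with 10 mg/kg (Pfkl 0.24, Vamp2 0.43, Pdhb −0.06, Mpc2 −0.34) or with 80 mg/kg (Pfkl 0.32, Gsk3b 0.16), with adjusted p-values between 0.679 and 0.973. Over all alternative fits, the block among them, the vehicle call was lost in 2 for Klf15, 3 for Gsk3a and 4 for Ldhd. With 10 mg/kg these losses were 3 for Pfkl and 4 for Vamp2, and with 80 mg/kg 3 for Pfkl and 3 for Gsk3b. Pdhb and Mpc2 each lost the call in 4 and changed direction in 1. Leaving out 1 array of the groups compared lost the call of Ldhd in 8 of 10 fits, Gsk3a in 3 of 10 (0.68 to 1.19) and Klf15 in 0 of 10. It was lost with 10 mg/kg in 8 of 11 for Mpc2, 7 of 11 for Pdhb, 5 of 11 for Vamp2 and 2 of 11 for Pfkl, and with 80 mg/kg in 10 of 11 for Gsk3b and 4 of 11 for Pfkl.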
